A study of Homo sapiens with 6 samples.

Results

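The proteasome subunit mRNAs were examined in RIP-seq data from WaGa cells, an established Merkel cell carcinoma (MCC) line. The genes were taken from the deposited table of counts as protein-coding genes named *PSMA* to *PSMG* followed by a number. This pattern matched 48 genes. The immunoproteasome genes *PSMB8* and *PSMB9* were left out by name, and the testis gene *PSMA8* was left out because its count was 0 in all 6 libraries. The remaining 45 of the 60655 genes in the table were the members, and 43 of them passed the filter on low counts and were among the 14507 genes tested. RIP-seq sequences the RNA that an antibody pulls out of a lysate. The 6 libraries came from 3 IPs with an IGF2BP3 antibody and 3 with control IgG, described as independent replicates and numbered 1 to 3 in both groups. All were from untreated, wild-type WaGa cells, so the findings apply to 1 cell line, and a library of input RNA was not analysed here.

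The proteasome is the protease of the cytosol and nucleus that breaks down proteins marked with ubiquitin. Its core particle (20S) is a barrel of alpha rings, which form the gate, and beta rings, which hold the proteolytic sites. The regulatory particle (19S) sits on the barrel, binds and removes ubiquitin, and unfolds the substrate with a ring of ATPases. Dedicated chaperones assemble each particle, and activators can replace the 19S on the barrel. The subunits are made in fixed proportions in nearly every cell, and their genes are known to be raised together by the transcription factor NFE2L1 when proteasome activity falls. IGF2BP3 is an RNA-binding protein known to regulate the stability and translation of the mRNAs it binds.

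Counts on genes ran from 9758759 to 14886414 per library. In both IPs, replicate 1 differed most from the rest. Pairs of libraries that included it had a chi-square of 18.2 to 22.0 per degree of freedom over genes, and those that did not had 2.19 (IgG IP) and 3.25 (IGF2BP3 IP), so no pair agreed within sampling noise. Of 11 MCC marker genes, 10 had at least 10 counts in every library, and *NEUROD1* had between 0 and 2. The 3 lymphocyte markers had at most 2 counts. *COL1A1* and *COL1A2* of the fibroblast list had at most 2, whereas *DCN* of the same list had 479 to 762. Keratinocyte *KRT14* and melanocyte *MLANA* were at 0, with *KRT5* at 4 to 11 counts and *PMEL* at 0 to 13. The mRNA of *IGF2BP3* itself had a log2 fold change of -0.04 between the IPs, and *HMGA1*, named by the study as a target, had one of 1.54.

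The members lie on many chromosomes, with 8 on chromosome 14 and 7 on chromosome 17. A property they share beyond their names was looked for in their promoters, because NFE2L1 is known to bind antioxidant response elements there. The core of that element, TGACNNNGC on either strand, was searched in the RefSeq promoters (GRCh38.p14, 250 bases before to 50 after the start). It was present for 14 of the 39 members with a promoter there (35.9%). The same held for 16.1% of all 27305 genes with a promoter and 19.5% of the 10188 tested genes with one. Each gene was counted once, with a match in any of its promoters. A match is a run of letters and does not show binding. Windows of 30 bases are shown for *PSMA4*, *PSMB3*, *PSMD5* and *PSME4*, as examples from the 14 members with a match. They are read 5′ to 3′ along the gene, and capitals mark the match, which runs on the opposite strand in *PSME4*. The windows are at chr15:78540650-78540679 (+), chr17:38752627-38752656 (+), chr9:120843037-120843066 (-) and chr2:53971008-53971037 (-), in the same order. The starts used are those of RefSeq, and the *PSMA4* window lies inside the gene span given below.
PSMA4: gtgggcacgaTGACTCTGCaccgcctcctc
PSMB3: gcctccgtttTGACTTTGCaaccaaactac
PSMD5: tggctacagtTGACACGGCcctaacggagg
PSME4: cccggcggctGCAGCGTCAccagcagagcc

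The level of the members was described first, as TPM, the authors' length-normalised estimate, which allows genes to be compared with each other. These are levels of RNA recovered in the IPs. With no input library analysed, they need not follow the levels in the cells. In bulk libraries such as these, fewer cells with an mRNA and less of it per cell cannot be told apart. In the IgG IP the median over the 45 members was 106 TPM. The 20S alpha mRNAs were the highest group, with a median of 681 TPM over 7 genes, against 106 for the 9 beta genes, 136 for the 6 19S ATPases and 104 for the 11 other 19S subunits. This ranking turned when the counts were used in place of TPM. As CPM per 1000 bases of canonical transcript, the alpha median was 55.3, below 61.9 for the beta genes, 60.9 for the ATPases and 81.3 for the other 19S subunits, and *PSMA6* moved from rank 2 to 39, *PSMA1* from 4 to 24 and *PSMA2* from 9 to 42, while *PSMA3* stayed first. The counts of these 3 genes are taken up below. In TPM, *PSMA3* led with 1157 ± 108 TPM (SD, n = 3), followed by *PSMA6* with 981 ± 46.2, *PSMA4* with 811 ± 31.1 and *PSMA1* with 681 ± 59.6. Each of these 4 lay further from the next than their spread. From *PSMC1* with 315 ± 63.5 TPM, the fifth gene, down to *PSMF1* and *PSMD5* at 58.2 and 58.1 TPM, neighbours in the order did not differ beyond their spread. *PSMA5* stood at 56.3 ± 2.06 TPM, so the alpha genes, whose products occupy a ring in equal numbers, ran from 56.3 to 1157 TPM.

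The tested members with the lowest TPM in the IgG IP were *PSMD11* with 27.8 ± 2.27 TPM and *PSME4* with 20.5 ± 5.87 TPM. The catalytic beta subunits of the constitutive proteasome were near the median. *PSMB5*, which carries the chymotrypsin-like site, had 89.8 ± 17.0 TPM, *PSMB6* (caspase-like) 122 ± 21.8 and *PSMB7* (trypsin-like) 121 ± 6.38, and these 3 overlapped. The inducible *PSMB10*, which replaces *PSMB7* in immunoproteasomes, had 2.60 ± 0.0850 TPM. The thymus-specific *PSMB11* was listed at 0 in all IgG IP libraries. *PSMB8* and *PSMB9*, which were not members, had at most 2 counts and 0 counts, respectively. The order in the IGF2BP3 IP began with the same 4 genes, *PSMA3* at 1088 ± 185, *PSMA6* at 948 ± 117, *PSMA4* at 767 ± 113 and *PSMA1* at 682 ± 77.7 TPM.

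**Figure D1:**
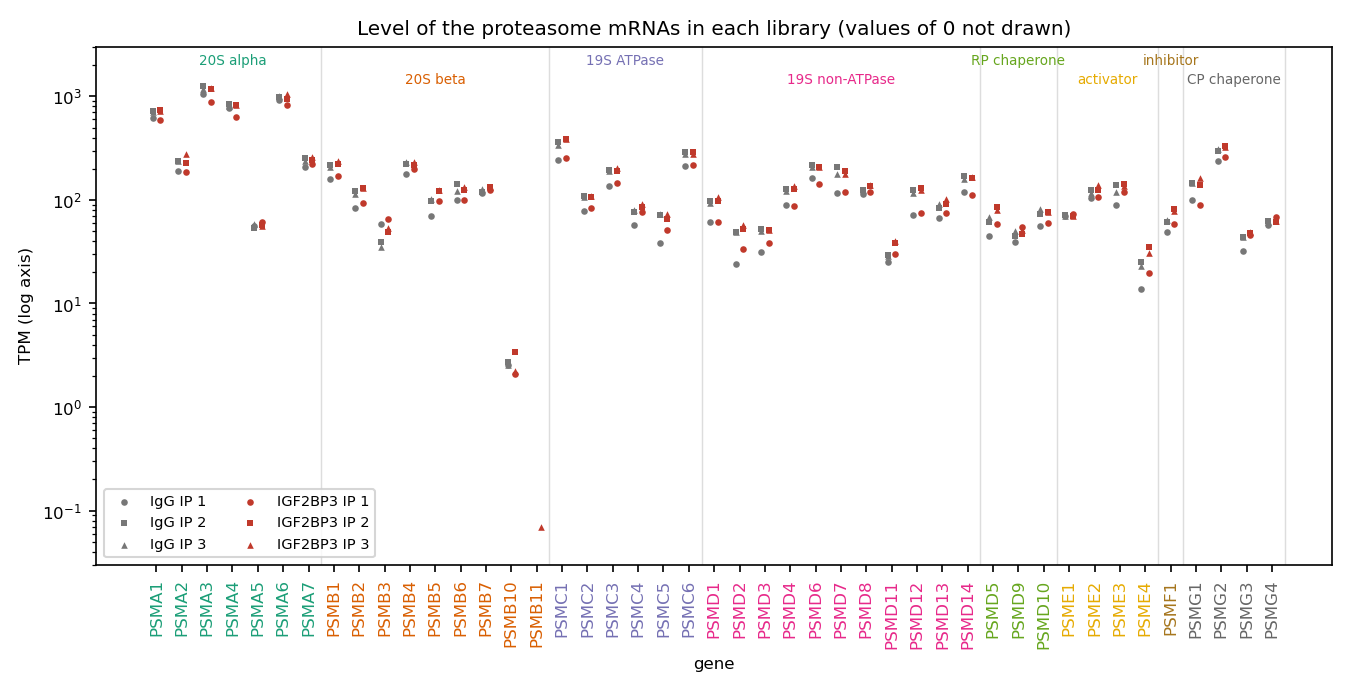
TPM on a log axis for each of the 45 members in the 6 libraries, grouped by role (RP, regulatory particle; CP, core particle; grey, IgG IP; red, IGF2BP3 IP; circle, square and triangle, replicates 1, 2 and 3). The IgG IP and IGF2BP3 IP points of a gene lie close together, *PSMA3*, *PSMA6*, *PSMA4* and *PSMA1* are highest, and *PSMB10* and *PSMB11* are far below the rest.

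Members together took nearly the same part of each library. Their share of all counts was 0.619%, 0.618% and 0.606% in the IgG IP, whereas that in the IGF2BP3 IP was 0.581%, 0.598% and 0.626%. The groups overlapped, and the means of 0.614% ± 0.00737 and 0.602% ± 0.0226 (SD, n = 3) differed by less than the spread in the IGF2BP3 IP. In the IgG IP their TPM summed to 7122, 8863 and 8634, and in the IGF2BP3 IP to 7006, 8889 and 9168. On this scale the replicate 1 libraries of both groups were the lowest.

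The IGF2BP3 IP was compared with the control to ask which mRNAs come down with IGF2BP3 beyond what IgG brings down. None of the 43 tested proteasome mRNAs was enriched (fold change of at least 1.5 and adjusted p under 0.05, edgeR quasi-likelihood test), where 1.16% of all tested genes were, and 0 of the 43 were lower, where 0.00% of all were. With DESeq2 the counts were also 0 and 0, where it called 2.22% and 0.00% of all genes. The fitted log2 fold changes ran from -0.35 (*PSMA6*) to 0.29 (*PSMD9*), that is from 0.783-fold to 1.23-fold, and the smallest adjusted p was 0.248. The median was -0.05, beside -0.01 over all tested genes. A positive value was found for 12 of the 43 (27.9%), where 48.9% of all tested genes had one. The median of the members depended on single libraries. It ran from -0.097 to -0.0058 on leaving out 1 library, the latter without IgG IP replicate 1. The shares of positive values in those fits are not given here. For 41 of the 43, the 95% interval of the fold change ended below a 1.5-fold enrichment, with *PSMB3* and *PSMD9* as the exceptions. The interval lay within 1.5-fold in both directions for 39 of the 43, against 53.7% of all tested genes. These shares were not matched for the number of reads, on which the width of an interval depends.

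At an unadjusted p under 0.05, 3 members were higher in the IGF2BP3 IP (*PSMD5*, *PSMB5* and *PSME4*), where 9.72% of all genes were, and 1 was lower (*PSMD6*), where 3.10% were. CPM, which are counts scaled to the library size after TMM normalization, did not overlap between the groups for 10 of the 43, where this held for 20.7% of all tested genes. In 3 of them, *PSMD5*, *PSMB5* and *PSMB2*, the IGF2BP3 IP was the higher. It was the lower in 7 members, *PSMA3*, *PSMA4*, *PSMC2*, *PSMC6*, *PSMD6*, *PSMD10* and *PSMD14*, an order that 8.69% of all tested genes had. In TPM these 10 members overlapped between the groups. The order in TPM instead set *PSMD11* and *PSMG3* apart, both with all IGF2BP3 IP libraries above the IgG IP libraries. These 2 of 43 compare with 10.7% of all tested genes whose groups did not overlap in TPM. The TPM were not centred here. In the median tested gene, log2(TPM + 1) was 0.11 higher in the IGF2BP3 IP than in the IgG IP.

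**Figure D2:**
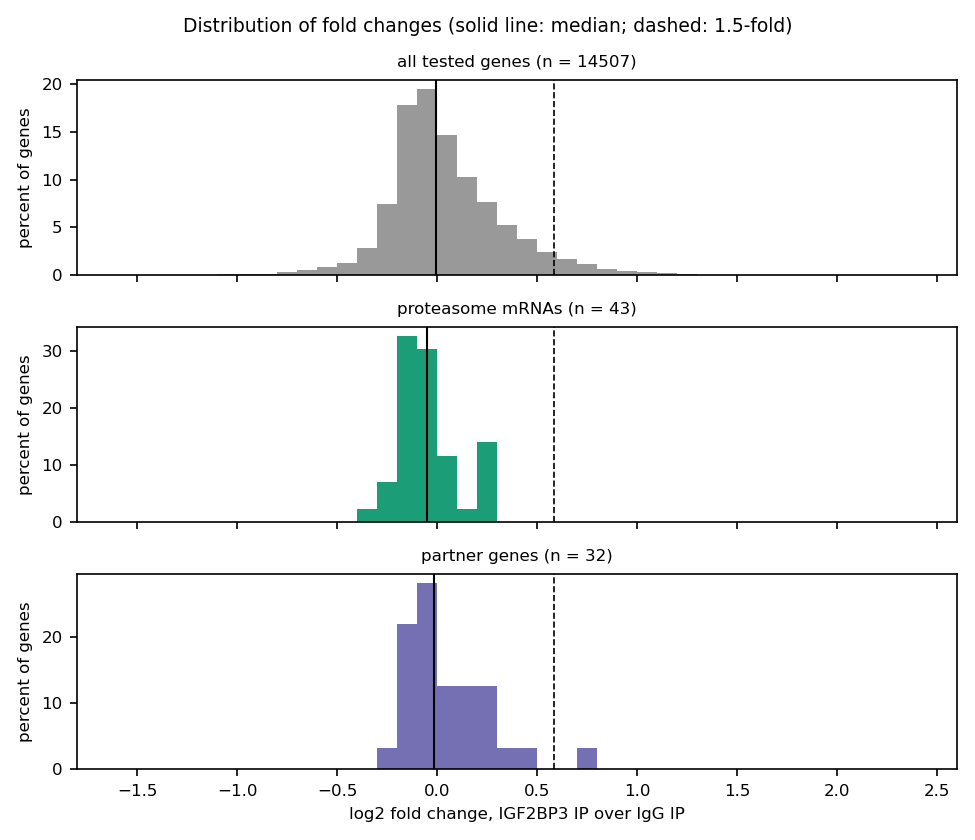
Percent of genes by log2 fold change of IGF2BP3 IP over IgG IP, in bins of 0.1, for all 14507 tested genes, the 43 tested proteasome mRNAs and the 32 partner genes. Solid lines mark the medians (-0.01, -0.05 and -0.01), and the proteasome mRNAs have no value beyond the dashed line at 1.5-fold, whereas all genes have a tail to its right.

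**Figure D3:**
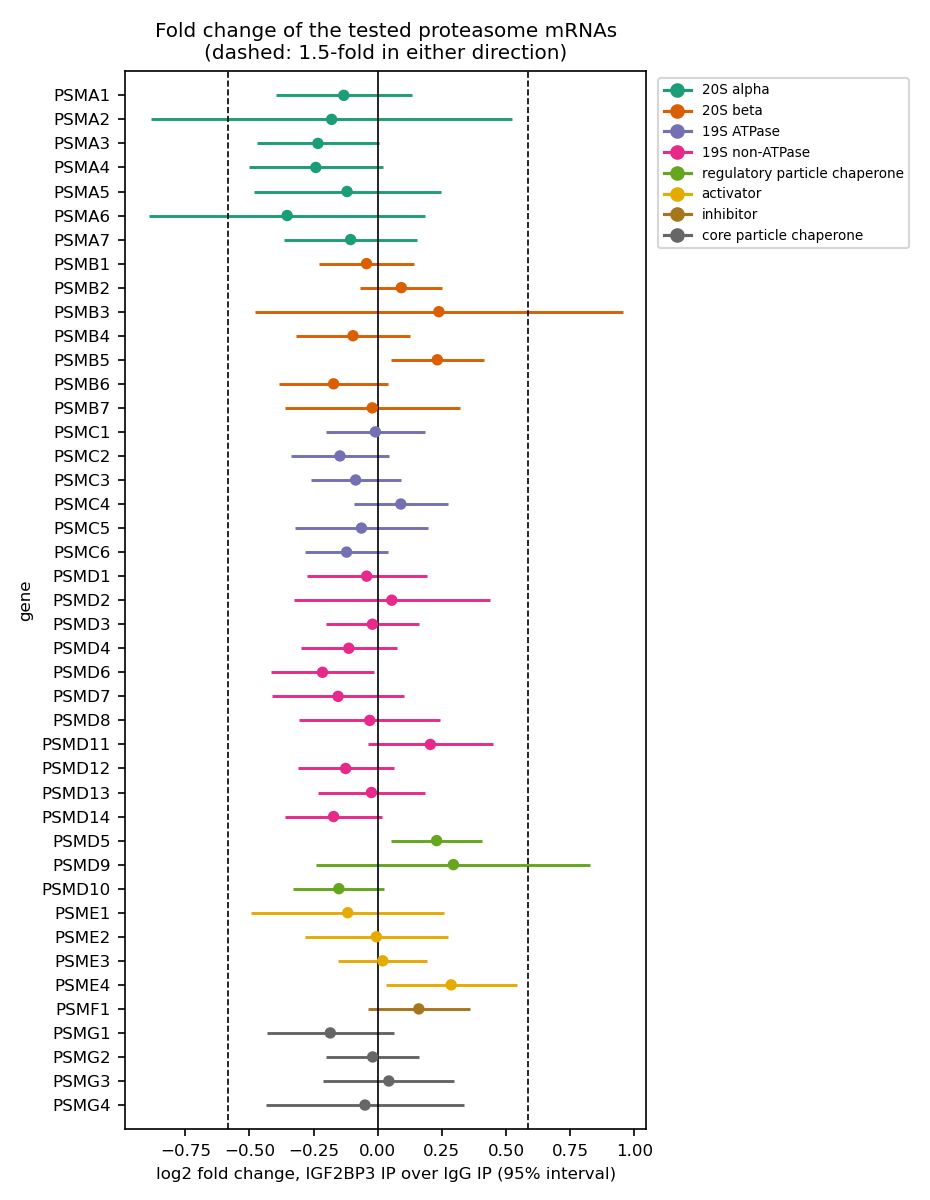
Fitted log2 fold change (points) with its 95% interval (lines) for the 43 tested members, coloured by role, with dashed lines at 1.5-fold in either direction. The 7 alpha genes lie left of 0, the intervals of *PSMD5*, *PSMB5*, *PSME4* and *PSMD6* leave out 0, and the widest intervals belong to *PSMA2*, *PSMB3*, *PSMA6* and *PSMD9*.

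Within the core particle, the 7 alpha mRNAs had negative log2 fold changes, with a median of -0.18, from -0.35 (*PSMA6*) to -0.11 (*PSMA7*). None of them passed the test. *PSMA3*, with the highest TPM of all members, had 881, 732 and 679 CPM in the IgG IP against 626, 649 and 673 CPM in the IGF2BP3 IP. The groups did not overlap, but IgG IP replicate 3 and IGF2BP3 IP replicate 3 lay close together. Its log2 fold change was -0.23 (SE 0.10, adjusted p = 0.396). *PSMA4*, on chr15:78540405-78552417 (GRCh38), had 574, 439 and 427 CPM against 403, 401 and 415 CPM. Here IgG IP replicate 1 was above the other 5 libraries, and the log2 fold change was -0.24 (SE 0.12, adjusted p = 0.436). *PSMA6* had 21.4, 15.9 and 16.1 CPM in the IgG IP against 19.6, 11.4 and 10.7 CPM in the IGF2BP3 IP. The groups overlapped, with IGF2BP3 IP replicate 1 above IgG IP replicates 2 and 3, and the log2 fold change of -0.35 had an SE of 0.24 (adjusted p = 0.588). Without both libraries numbered 1, the log2 fold changes were -0.090 for *PSMA3*, -0.085 for *PSMA4* and -0.53 for *PSMA6*, the last with an adjusted p of 0.0136 and below the 1.5-fold minimum. *PSMA7* (-0.11) and *PSMA2* (-0.18) turned positive without IgG IP replicate 1, at 0.0060 and 0.22. *PSMA5* had 84.7 and 88.4 CPM in IgG IP replicates 2 and 3, both below its IGF2BP3 IP mean of 90.6 CPM. Its log2 fold change without IgG IP replicate 1 is not given here.

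Of the 7 beta mRNAs tested, 3 had positive and 4 negative values, with a median of -0.02. None of them passed the test, the 3 catalytic ones included. *PSMB5*, a gene of 3 exons at chr14:23016543-23035230, had 65.4, 63.0 and 65.7 CPM in the IgG IP against 78.0, 72.6 and 77.3 CPM in the IGF2BP3 IP. The groups were apart and each was tight, and the log2 fold change was 0.23 (SE 0.08, adjusted p = 0.258). *PSMB6* had 65.8, 66.2 and 58.0 CPM against 57.2, 53.1 and 58.4 CPM. One IGF2BP3 IP library exceeded the lowest IgG IP library, and the log2 fold change was the lowest of the beta genes, -0.17 (SE 0.09, adjusted p = 0.488). *PSMB7* had 96.7, 68.6 and 70.3 CPM against 88.4, 67.8 and 75.4 CPM, with both replicate 1 libraries on top, and a log2 fold change of -0.02 (SE 0.15, adjusted p = 0.974). *PSMB3*, a structural beta subunit, had the highest value of the group, 0.24, with an SE of 0.32 (adjusted p = 0.808). Its CPM were 27.6, 13.4 and 14.2 in the IgG IP against 30.2, 16.2 and 18.0 in the IGF2BP3 IP, and replicate 1 exceeded the others of its group by more than the difference between the IPs. *PSMB2* had a log2 fold change of 0.09 (SE 0.07). *PSMB10* had counts of 1, 0 and 1 with IgG and 0, 4 and 1 with IGF2BP3 antibody, and *PSMB11* had 1 count in IGF2BP3 IP replicate 3 only. Neither was tested, and no fold change is given for them.

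In the regulatory particle, 3 of 17 mRNAs had positive and 14 negative values. The 6 ATPases, the motor of the 19S, had a median log2 fold change of -0.07, from -0.15 (*PSMC2*) to 0.09 (*PSMC4*), and the smallest adjusted p among them was 0.513. The other 11 subunits, which form the base scaffold and the lid, had a median of -0.04. The highest was *PSMD11*, a lid subunit known to stabilise the contact of the particle with the barrel, at 0.21 (SE 0.11, adjusted p = 0.476). The lowest was *PSMD6*, another lid subunit, at chr3:64010550-64024010. It had 194, 179 and 171 CPM in the IgG IP against 143, 159.7 and 166 CPM in the IGF2BP3 IP, groups that did not overlap, and a log2 fold change of -0.22 (SE 0.09, adjusted p = 0.349). Without both libraries numbered 1 this value was -0.10. *PSMD14*, the deubiquitinase of the lid, had -0.17 (SE 0.08, adjusted p = 0.438). For all 17 genes the 95% interval lay within 1.5-fold in both directions.

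None of the 3 chaperones of the regulatory particle passed the test. *PSMD5*, at chr9:120815496-120842951, had 149, 151 and 163 CPM in the IgG IP against 172, 187 and 185 CPM in the IGF2BP3 IP. The groups were apart, and the log2 fold change was 0.23 (SE 0.08, adjusted p = 0.248). *PSMD9* had the highest value of all members, 0.29, with an SE of 0.24 (adjusted p = 0.650). It rested on few reads, 3.25, 2.81 and 3.47 CPM against 4.03, 3.02 and 4.63 CPM, and the groups overlapped. *PSMD10*, also known as the oncoprotein gankyrin, had -0.15 (SE 0.08, adjusted p = 0.471). Among the 4 chaperones of the core particle, the log2 fold changes ran from -0.18 (*PSMG1*, SE 0.11) to 0.04 (*PSMG3*, SE 0.11), and the smallest adjusted p was 0.528.

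Of the activators, which open the barrel without ubiquitin, *PSME4* had the highest value, 0.29 (SE 0.11, adjusted p = 0.329). It encodes PA200, a large single-chain activator of the nucleus, and spans 47 exons. Its CPM were 114, 141 and 136 in the IgG IP against 141, 177 and 160.2 in the IGF2BP3 IP. IgG IP replicate 2 was just above IGF2BP3 IP replicate 1, and within each replicate number the IGF2BP3 IP was higher. *PSME1*, *PSME2* and *PSME3*, which encode the subunits of the ring-shaped activators, ran from -0.12 (*PSME1*, SE 0.17) to 0.02 (*PSME3*, SE 0.08). The inhibitor *PSMF1* had 0.16 (SE 0.09, adjusted p = 0.493).

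**Figure D4:**
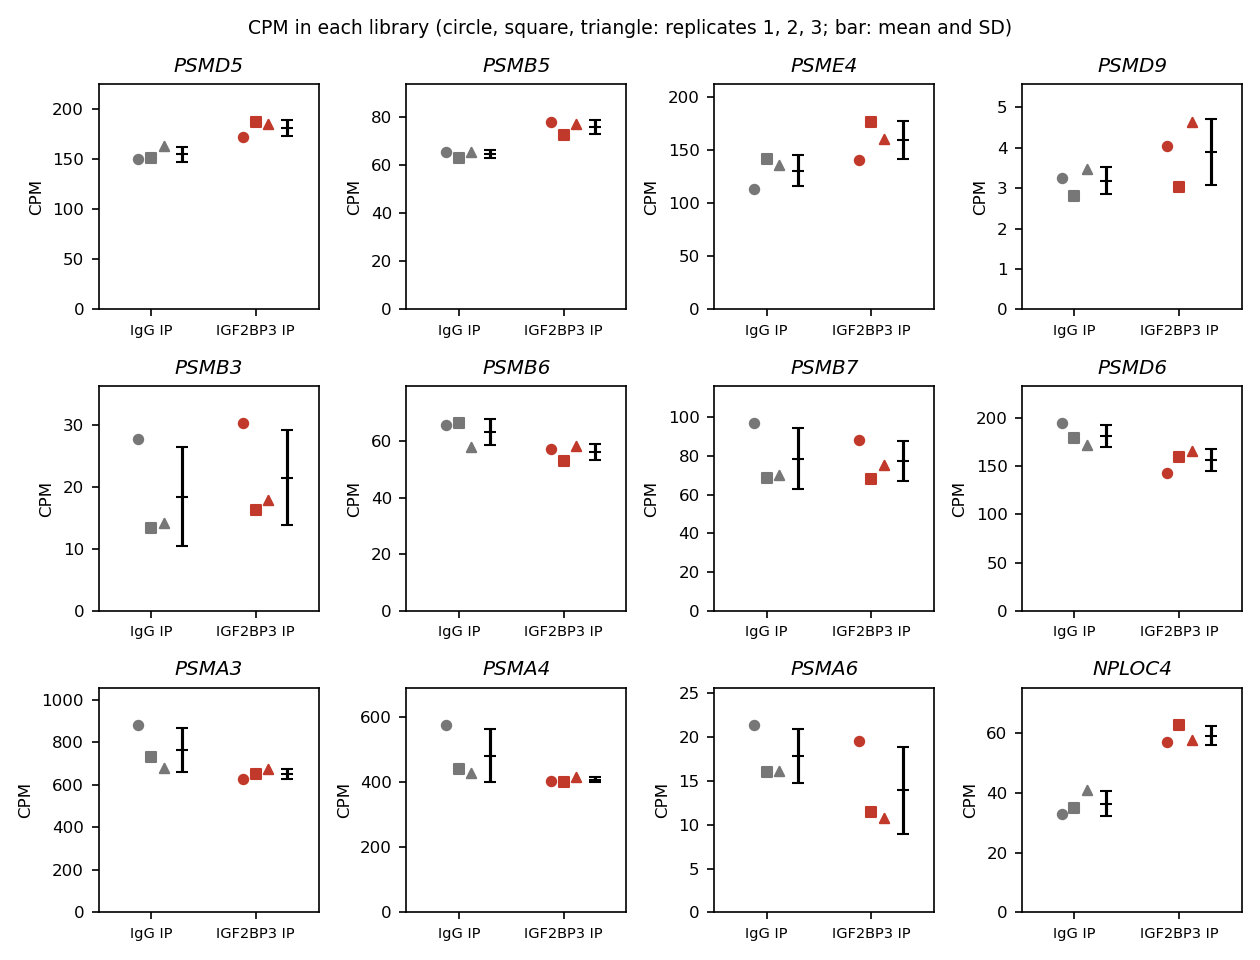
CPM from 0 in each library for 11 members and the partner gene *NPLOC4*, with the mean and SD of each group beside the points. *PSMD5* and *PSMB5* are higher in all 3 IGF2BP3 IP libraries by a small margin, *PSMA3*, *PSMA4* and *PSMD6* lower, and the gap of *NPLOC4* is wider than that of any member shown.

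Because the 2 libraries numbered 1 deviated together, the replicate number was also entered as a block. Replicates 2 and 3 correlated across numbers (0.277 and 0.269) about as much as within them (0.277 and 0.231). Their pairing therefore rests on the sample titles only. It left both counts at 0 under the thresholds, where 3.56% and 0.103% of all genes were enriched and lower. At an adjusted p under 0.05 with no fold minimum, which was added after seeing the data, this blocked edgeR fit had 3 members higher and 4 lower, against 10.9% and 5.23% of all tested genes. The 3 were *PSME4* (log2 fold change 0.29, adjusted p = 0.00115), *PSMD5* (0.23, adjusted p = 0.00726) and *PSMB5* (0.23, adjusted p = 0.0196). The 4 were *PSMA3* (-0.22, adjusted p = 0.0190), *PSMA4* (-0.23, adjusted p = 0.0197), *PSMA6* (-0.39, adjusted p = 0.0259) and *PSMD6* (-0.21, adjusted p = 0.0268). The share of members higher was below that of all genes, and the share of members lower was above it. With the GC correction added to the block, 2 members were higher and 10 lower, against 7.52% and 4.27% of all genes, and *PSMB5* (0.13, adjusted p = 0.186) and *PSMA3* (-0.16, adjusted p = 0.0717) were no longer among them. With the length correction added to the block, 4 were higher and 11 lower, against 8.63% and 14.8%. Without both libraries numbered 1 and with no block, 3 were higher (*PSMD5*, *PSMD11* and *PSME4*) and 1 was lower (*PSMA6*), against 8.23% and 1.90%. *PSMD5* and *PSME4* were higher and *PSMA6* lower in all 4 of these fits, which reuse the same libraries and are not independent of each other. *PSMA6* is also among the genes whose counts are uncertain, as set out below.

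The counts of some members were small beside their length-normalised level. A protein-coding gene on the same strand overlaps more than 10% of the exon bases of *PSMA1*, *PSMA2*, *PSMA6*, *PSMD9* and *PSMB10*, a limit set after the overlaps were seen. In *PSMC2*, the only other member with such a neighbour, *PMPCB* covers 1.30%. Relative to the value expected from FPKM and transcript length, with the median tested gene at 1, the counts were 0.0236 for *PSMA6*, 0.0279 for *PSMA2*, 0.0405 for *PSMD9*, 0.0526 for *PSMB10* and 0.115 for *PSMA1*, the 5 lowest values of the members, beside 0.913 for *PSMC2*. *PSMA6* stood second in TPM and had between 132 and 238 counts per library. *PSMA4*, next at 0.189, has no such overlap. The expected value rises with the canonical transcript length used. That length is 4378 bases for *PSMA4* and 4390 for *PSMC1*, against a median of 1540 over the tested members. How far this lowers their values was not tested. For *PSMC1* (0.242), the gene *NRDE2* on the other strand covers 76.1% of the exon bases. How reads shared by overlapping genes were counted is not known, so the fold changes of the overlapped genes, among them the highest and the lowest of all members, are uncertain in a way that the SE does not cover. Without the 4 tested genes overlapped by more than 10% the median log2 fold change of the members was -0.04 (39 genes), and it was also -0.04 without *PSMC2* (38 genes).

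**Figure D5:**
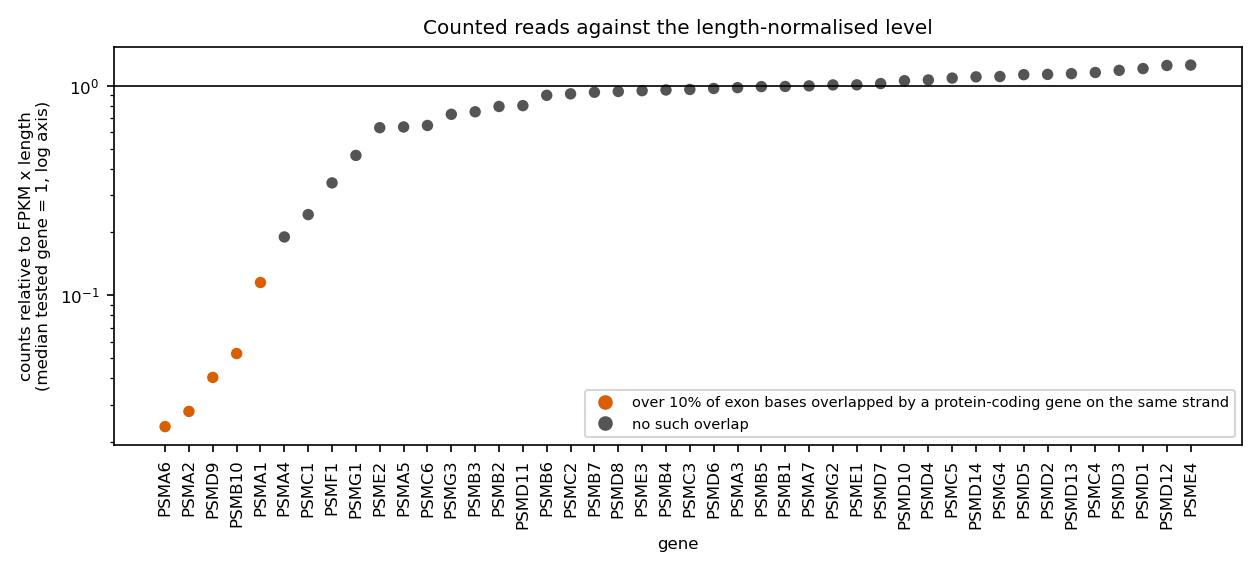
Counts relative to FPKM times transcript length for 44 members on a log axis, with the median tested gene at 1 (line) and genes with more than 10% of exon bases overlapped by a protein-coding gene on the same strand in orange. The 5 orange genes are the 5 lowest, from 0.0236 to 0.115. *PSMB11*, with 1 count in all, is not drawn.

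The proteasome mRNAs were short. Their canonical transcripts (GENCODE version 44) had a median length of 1540 bases and a median 3′ untranslated region of 369 bases, against 3487 and 1405 for all tested protein-coding mRNAs and 4673 and 1794 for the 165 enriched ones. Median GC content was 47.9%, near the 47.8% of all mRNAs and below the 56.4% of the enriched ones. The letters CAUA, CAUC or CAUU, known from the sites of IGF2BP proteins, occurred 11.5 times per 1000 bases in the median member, 10.8 in all mRNAs and 10.8 in the enriched ones. UGGAC, another motif tied to this family, occurred 1.10, 1.12 and 1.41 times per 1000 bases. Across the 43 members the log2 fold change had a Spearman correlation of 0.40 with GC content and 0.24 with length, and across 11857 protein-coding mRNAs of 0.49 and 0.18. These are descriptions across genes of the same libraries, and genes are not independent replicates.

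A list of 32 other genes of the pathway was set beside the members. It holds further subunits and assembly factors, proteasome-bound enzymes, shuttles that bring in substrates, the VCP unfoldase with its cofactors, ubiquitin genes and regulators of proteasome expression, and all 32 were tested. Of these, 1 was enriched and 0 were lower, where 1.16% and 0.00% of all tested genes were. The median log2 fold change was -0.01. The enriched gene was *NPLOC4*, which with UFD1 forms the cofactor that lets VCP extract ubiquitinated proteins for the proteasome. Its CPM were 33.1, 34.9 and 41.1 in the IgG IP against 57.2, 62.8 and 57.7 in the IGF2BP3 IP. The groups were well apart, and the log2 fold change was 0.70 (SE 0.11, adjusted p = 0.0218). Leaving out replicate 2 or 3 of the IgG IP gave log2 fold changes of 0.67 and 0.80, and the call was lost (adjusted p = 0.129 and 0.0633). It was likewise lost without replicate 2 or 3 of the IGF2BP3 IP, at 0.65 and 0.71 (adjusted p = 0.162 and 0.125). The GC correction gave 0.56 (adjusted p = 0.0563), below the 1.5-fold minimum, and limma-trend on TPM gave 0.93 and 0.98 with pseudocounts of 1 and 0.1 (adjusted p = 0.651 and 0.723).

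Next came *UBA1*, the enzyme that activates ubiquitin, with 49.9, 58.4 and 60.0 CPM against 64.6, 87.1 and 83.2 CPM. The groups did not overlap, and the log2 fold change was 0.48 (SE 0.13, adjusted p = 0.137). *FBXO7*, whose protein binds PSMF1, had 0.32 (SE 0.10, adjusted p = 0.227), and *IPO9*, an importin that carries proteasomes into the nucleus, had 0.25 (SE 0.08, adjusted p = 0.202). The lowest values of the list belonged to *POMP*, which matures the core particle, at -0.22 (SE 0.12, adjusted p = 0.489) and to *UCHL5*, a deubiquitinase on the 19S, at -0.19 (SE 0.10, adjusted p = 0.487). *NFE2L1*, the regulator named above, had -0.02 (SE 0.21, adjusted p = 0.980). In the blocked fit with no fold minimum, 5 genes of the list were higher and 2 lower, against 10.9% and 5.23% of all tested genes. Among them, *NPLOC4*, *UBA1*, *FBXO7* and *IPO9* were higher and *UCHL5* and *POMP* lower.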

How the data were processed

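RIP-seq was performed by the authors in WaGa cells with IGF2BP3 or IgG antibodies. Per the study's methods and the submitters' processing notes, paired-end reads of 150 bp were aligned to GRCh38 with STAR 2.7.9a and quantified with RSEM and GENCODE version 37. The authors deposited whole-number counts per gene, without normalization, and TPM and FPKM values normalised for length and depth. The program that made the counts and its strand setting were not given in the sources used here, so overlapping genes are uncertain. Groups and replicate numbers came from the sample titles. The members, the gene lists and the rule for named genes were chosen with earlier results of these data known. Values in every library were given for members at an unadjusted p under 0.05, the 3 highest and 3 lowest fold changes and the catalytic subunits, and the extremes of each subgroup were named. The values of 1 gene of the wider pathway list are not reported here, though it is counted in the totals of that list.

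All genes were fitted together from the counts with edgeR 4.0.16 in R 4.3.3 (filterByExpr, TMM, quasi-likelihood test, condition as the only term). P-values were adjusted over all tested genes by the Benjamini-Hochberg method, and tests were two-sided. Enriched meant a fold change of at least 1.5 and an adjusted p under 0.05, as in the study. The SE of a log2 fold change was derived from its F statistic. The labels call the replicates independent without naming separate cultures, so p-values measure only the spread between these samples, which may be technical. Alternatives were DESeq2 1.42.0, scaling by RLE or by totals alone, a minimum of 1 count in all or of 10 in each library, limma-trend (limma 3.58.1) on log2 TPM with a pseudocount of 1 or 0.1, loess corrections (span 0.5) for length and GC content, no fold minimum, a replicate block and leaving out libraries. The length correction used canonical transcript lengths of GENCODE version 44 in place of effective lengths, since counts and FPKM disagree for overlapped genes, and 60437 of the 60655 identifiers were found there. Counts over canonical length likewise replaced counts over effective length. The scripts were tested on simulated counts. These had no deviation of replicate 1, and their planted changes were larger than any fitted for a member.

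Deviations from the group mean correlated between libraries of the same number, at 0.568, 0.277 and 0.231 over 14507 genes for replicates 1 to 3. The crossed pairs of replicates 2 and 3 had 0.277 and 0.269. These values set replicate 1 apart and do not show a pairing within replicates 2 and 3. The numbers were taken from the titles to pair the samples.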

Additional observations from a re-analysis of the deposited data

How the results depend on the processing

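The counts of 0 enriched and 0 lower proteasome mRNAs stayed at 0 under every alternative set out at the start, leaving out each library included (range 0 to 0), and under the replicate block. With the block and no fold minimum, added after seeing the data, they were 3 and 4, and 5 and 2 for partner genes. Of all tested genes, 10.9% and 5.23% passed there. With the length correction added to the block they were 4 and 11 (partner genes 4 and 5), against 8.63% and 14.8%. With the GC correction in its place they were 2 and 10 (4 and 1), against 7.52% and 4.27%. Without both libraries numbered 1 and with no block they were 3 and 1 (6 and 0), against 8.23% and 1.90%. These fits also had no fold minimum and were added after seeing the data. The block changed no other call. The median log2 fold change of the members ran from -0.085 to -0.0049 over the other alternatives and from -0.097 to -0.0058 on leaving out single libraries. The count of enriched partner genes fell from 1 to 0 with limma-trend on TPM at either pseudocount and with the GC correction, with or without the block (4 settings), and ran from 0 to 2 on leaving out single libraries. The TPM fold changes are given relative to the median of all tested genes, which was 0.11 and 0.13 above 0, whereas their p-values are of uncentred TPM. Of 589 combinations of 31 named genes and alternatives, 564 kept direction and side of the threshold, 8 lost a call, 1 gained one and 16 changed sign. *PSMB7* turned to 0.025 with library totals only, to 0.026 with the length correction (0.028 with the block) and to 0.046 without both libraries numbered 1, where *PSMA2* turned to 0.060. With the GC correction *PSMG3* turned to -0.15 and *PSMC4* to -0.0055 (-0.15 and -0.0088 with the block). On leaving out single libraries *PSMA2* ran from -0.36 to 0.22, *PSMA7* from -0.18 to 0.0060, *PSMB3* from -0.084 to 0.64, *PSMB7* from -0.13 to 0.15, *PSME1* from -0.27 to 0.055 and *PSMG3* from -0.021 to 0.11. Of the 10 highest members by TPM, 5 were among the 10 highest by counts over canonical length. FPKM is proportional to TPM within a library and gives no check of that order. The cause of these changes was not tested. With 3 libraries a group and SEs up to 0.32, small differences of *PSMB3* and *PSMA2* were not detectable, and intervals cover the spread between libraries only.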

Other observations

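The 5 protein-coding genes whose log2(CPM + 1) over the 6 libraries was most like the mean centred profile of the tested proteasome mRNAs were *CHEK2* (Pearson r = 0.991), *ZSCAN9* (0.988), *NIPSNAP1* (0.986), *VWDE* (0.983) and *RPL11* (0.983). The profile was 0.10, -0.018 and -0.026 in the IgG IP against 0.0043, -0.071 and 0.010 in the IGF2BP3 IP (log2, centred), so it was set mainly by a high value in IgG IP replicate 1. Pseudogenes that carry the name of a member took few counts, and pseudogenes under other names were not included. Their sum reached at most 5.15% of the counts of the parent gene for *PSMA6* and 2.93% for *PSME2*.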
